A study of Mus musculus with 8 samples.

Results

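Collagens are the proteins whose messenger RNA was followed here in old mouse muscle. The members were all protein-coding genes of the deposited table whose symbol consists of Col, a number, a and a number, which gave 44 of the 48328 genes in the table. By type there were 11 fibrillar, 8 basement membrane and 25 other collagen genes. The 19 genes that reached 1 FPKM (fragments scaled for transcript length and for the mapped fragments of the library) in at least 4 of the 8 libraries were tested, 7 fibrillar, 4 basement membrane and 8 other.

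Total RNA came from the lower part of the tibialis anterior, a fast muscle at the front of the shin, of C57BL/6J mice aged 24 months. There were 4 K320E-skm mice, in which skeletal muscle makes a dominant mutant Twinkle, the helicase that unwinds mitochondrial DNA for its replication, and 4 wild-type mice. Each genotype had 2 animals labelled male and 2 labelled female. The promoter or Cre line behind the mutant protein is not given in the sources used here, and the labels name no treatment. The design text sets the K320E-skm profile against the wild-type profile at this age, and for collagens the comparison asks whether the matrix transcripts of the muscle differ.

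Every collagen chain folds with 2 partners into a triple helix. Fibrillar collagens assemble into the tension-bearing fibrils of tendon and of the sheaths around muscle, fascicles and fibres, and are made mostly by fibroblasts and tendon cells. Type IV collagen forms the sheet-like network of the basement membrane that wraps each muscle fibre and capillary, and type VI collagen forms beaded filaments that link this sheet to the fibrils outside. Accumulation of fibrillar collagen is a known feature of aged and diseased muscle.

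Several facts about the libraries bear on what follows. Twnk, the gene of Twinkle, stood between 3.82 and 5.06 FPKM in K320E-skm muscle, against 2.16 to 2.70 FPKM in wild-type muscle, without overlap. The library labelled K320E-skm 4 carries a male label, but had 10.2 FPKM of Xist and 0.0117 FPKM of Ddx3y, as in the libraries labelled female. The sex term of the fits uses the labels, this one included. By label the sexes are balanced between the genotypes, so the fold changes are the same with and without the term, while the p-values differ and rest on the labels. By Xist and Ddx3y only K320E-skm 1 among the K320E-skm libraries matched a male, and the sexes would not be balanced. No fit used the sexes read from these transcripts, and the part of sex in the fold changes was not tested. The medians of the gene ratios gave wild-type 1 a scale factor of 1.28 and the other libraries factors between 0.905 and 1.04. Among the myofibre markers, Myh4 had an exact 0, which can be a failed estimate, for libraries of both genotypes. Its highest values were 2965 FPKM for K320E-skm and 4357 FPKM for wild-type. Tnnt3, a fast troponin, was abundant in every library, between 6848 and 8307 FPKM in K320E-skm muscle, against 9410 to 10397 FPKM in wild-type muscle. Ckm, muscle creatine kinase, stood between 5421 and 6664 FPKM and between 6560 and 7408 FPKM in the same order. Collagen transcripts together made up between 0.0155 and 0.0204% of all FPKM in K320E-skm libraries and between 0.0115 and 0.0335% in wild-type libraries.

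The start regions of a few collagen genes show how differently they are built. Col3a1 and Col1a2 are the most abundant fibrillar members, and Col4a1 with Col4a2 are the most abundant basement membrane members. The stretches of Col3a1 (chr1:45311418-45311537, plus strand) and Col1a2 (chr6:4505498-4505617, plus strand) are the 120 bases directly before the RefSeq transcript start in build GRCm38.p6, with capitals marking matches on either strand to the letters TATAA of the TATA box, to CCAAT and to GGGCGG, the core of the GC box. The last line is the 22-base stretch on the plus strand (chr8:11312805-11312826) between the start of Col4a2 and that of Col4a1, which is read from the other strand, so both transcripts contain it.
Col3a1: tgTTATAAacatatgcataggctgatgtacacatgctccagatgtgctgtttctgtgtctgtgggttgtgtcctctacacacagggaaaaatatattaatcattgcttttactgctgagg
Col1a2: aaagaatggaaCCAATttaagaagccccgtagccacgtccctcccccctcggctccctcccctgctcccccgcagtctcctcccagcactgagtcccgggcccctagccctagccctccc
Col4a2 and Col4a1: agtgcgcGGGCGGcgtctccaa

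RefSeq windows from 250 bases before to 50 after the start were at hand for 35 of the collagen genes, 38 windows in all. GGGCGG stood in 23 of these windows (60.5%) and in 35.7% of all 32851 windows. TATAA stood in 18.4% of the collagen windows and 24.9% of all, and CCAAT in 34.2% and 37.4%. In the 120 bases shown, the match in Col3a1 is TATAA on both strands, overlapping, beginning 118 bases before the start, and the one in Col1a2 is CCAAT beginning 109 bases before it, and the stretch shared by Col4a2 and Col4a1 holds GGGCGG. Matches of letters are a description and do not show binding.

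No collagen gene passed the threshold between K320E-skm and wild-type muscle. Col3a1, Col1a1, Col1a2 and the tested type VI chains had lower mean FPKM in K320E-skm muscle, but the genotypes overlapped for all 19 tested genes. The fold range was wider within wild-type for 17 of them, all but Col5a3 and Col7a1. Type IV chains differed little in mean. Limma on log2(FPKM + 1) with a sex term, adjusted by Benjamini-Hochberg over 10521 genes, called 0 of 19 collagens, where 0.0190% of all tested genes were called. At an unadjusted p under 0.05, limma had 3 of 19 collagens (15.8%), all lower in K320E-skm, against 12.0% of all tested genes lower and 13.1% in either direction. The share for collagens is therefore near that of the table as a whole.

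Log2 fold changes were under 0 for 18 of the 19 members and for 79.5% of all tested genes. Their median was −0.24, against −0.14 over all tested genes. After median-ratio rescaling, which divides each library by its scale factor, 14 of 19 were under 0, against 49.4% of all tested genes, the median was −0.07 against 0.00 over all genes, and limma gave 0 of 19 an unadjusted p under 0.05, against 9.85% of all genes. On that scale too limma called 0 of 19, against 0.0190% of all tested genes. As deposited, 0 of 19 collagens had non-overlapping genotypes, against 9.92% of all tested genes. After rescaling 1 of 19 did, Col4a2, which lay higher in K320E-skm, against 5.89% of all tested genes.

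**Figure D1:**
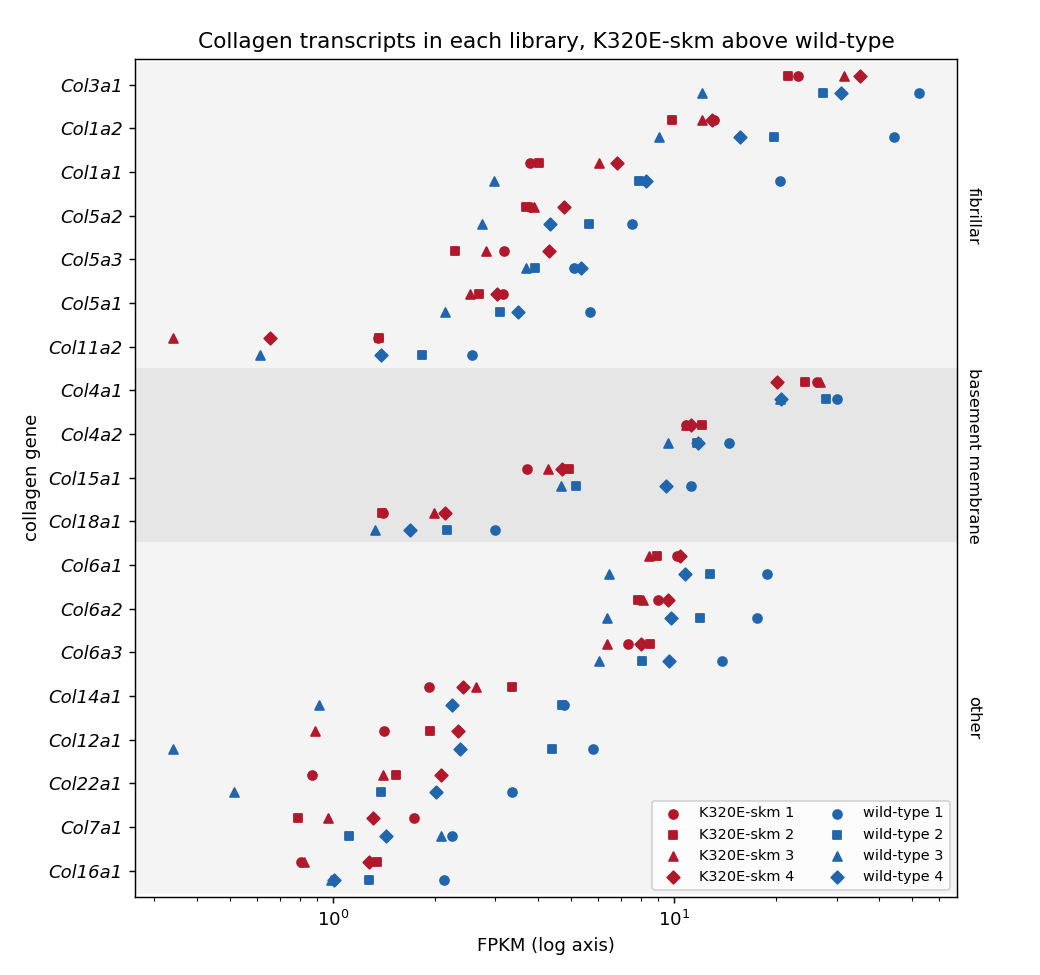
FPKM (log axis) of the 19 tested collagen genes in each of the 8 libraries, with K320E-skm points above wild-type points in each row and a marker shape per replicate number. Wild-type 1 is the highest library in 18 of the 19 rows and wild-type 3 the lowest in 13, and the K320E-skm libraries span the narrower fold range in 17 rows.

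Type I collagen, the main fibril protein of tendon and muscle sheaths, is built from chains of Col1a1 (ENSMUSG00000001506, chromosome 11, 94936224 to 94953042, plus strand, GRCm38) and Col1a2 (ENSMUSG00000029661, chromosome 6, 4504814 to 4541544, plus strand). Col1a1 stood at 3.78, 4.02, 6.04 and 6.80 FPKM in the libraries of K320E-skm 1 to 4, against 20.4, 7.89, 2.97 and 8.29 FPKM in those of wild-type 1 to 4. Col1a2 stood at 13.1, 9.86, 12.1 and 12.9 FPKM in the libraries of K320E-skm 1 to 4, against 44.3, 19.7, 9.05 and 15.6 FPKM in those of wild-type 1 to 4. For both genes 3 wild-type libraries lay above all K320E-skm libraries and wild-type 3 lay below them all. The means were 5.16 ± 1.49 and 9.90 ± 7.43 FPKM for Col1a1 and 12.0 ± 1.49 and 22.2 ± 15.4 FPKM for Col1a2, in K320E-skm and wild-type muscle in that order (SD, n = 4 each). The log2 fold changes were −0.60 (95% confidence interval −1.58 to 0.37, limma adjusted p = 0.537) for Col1a1 and −0.62 (−1.47 to 0.22, adjusted p = 0.479) for Col1a2. Intervals of this width do not show that the levels are alike.

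Type III collagen, encoded by Col3a1 (ENSMUSG00000026043, chromosome 1, 45311538 to 45349706, plus strand), forms thin fibrils together with type I and is prominent in elastic tissue and in the sheaths around single fibres. It had the highest mean of all collagens over the 8 libraries, 29.3 FPKM. Its level stood at 23.1, 21.6, 31.5 and 35.2 FPKM in the libraries of K320E-skm 1 to 4, against 52.5, 27.3, 12.1 and 30.8 FPKM in those of wild-type 1 to 4. The K320E-skm libraries all lay inside the wild-type range, with means of 27.8 ± 6.55 and 30.7 ± 16.7 FPKM in K320E-skm and wild-type muscle (SD, n = 4 each). Its log2 fold change was 0.00 (−0.84 to 0.85, limma adjusted p = 0.997). This value turned to −0.43 without wild-type 3 and 0.38 without wild-type 1.

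Type V chains nucleate fibrils and set their diameter. Col5a2, which lies near Col3a1 on chromosome 1 and is read from the other strand (45374321 to 45503282), stood at 3.78, 3.68, 3.90 and 4.77 FPKM in the libraries of K320E-skm 1 to 4, against 7.52, 5.65, 2.74 and 4.34 FPKM in those of wild-type 1 to 4. Wild-type libraries again lay on both sides of the K320E-skm libraries, and the log2 fold change was −0.21 (limma adjusted p = 0.684). Col5a1 averaged 2.85 ± 0.292 FPKM in K320E-skm muscle, against 3.60 ± 1.49 FPKM in wild-type muscle (SD, n = 4 each), and gave −0.20 (limma adjusted p = 0.654).

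Col5a3 (chromosome 9, 20770050 to 20815067, minus strand), the third type V chain, was one of the 3 members with an unadjusted p under 0.05. Its level stood at 3.17, 2.29, 2.81 and 4.30 FPKM in the libraries of K320E-skm 1 to 4, against 5.08, 3.92, 3.69 and 5.35 FPKM in those of wild-type 1 to 4. Only K320E-skm 4 reached into the wild-type range. The means were 3.14 ± 0.853 and 4.51 ± 0.830 FPKM in K320E-skm and wild-type muscle (SD, n = 4 each), and the log2 fold change was −0.42 (SE 0.17, unadjusted p = 0.0319 and adjusted p = 0.354 by limma). It was −0.28 after rescaling (adjusted p = 0.622). Col11a2, a chain of type XI collagen, which is best known from cartilage, was near the filter at 0.339 to 1.37 FPKM in K320E-skm muscle, against 0.611 to 2.57 FPKM in wild-type muscle, and gave −0.41 (limma adjusted p = 0.506).

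The type IV chains of the basement membrane varied little between libraries, by 1.12- to 1.34-fold within K320E-skm and 1.47- to 1.51-fold within wild-type. Col4a1 (ENSMUSG00000031502, chromosome 8, 11198423 to 11312826, minus strand) stood at 26.3, 24.3, 26.8 and 20.0 FPKM in the libraries of K320E-skm 1 to 4, against 30.1, 28.0, 20.4 and 20.7 FPKM in those of wild-type 1 to 4. Col4a2 (ENSMUSG00000031503, 11312805 to 11449287, plus strand) stood at 10.8, 12.1, 10.9 and 11.2 FPKM in the libraries of K320E-skm 1 to 4, against 14.5, 11.7, 9.62 and 11.8 FPKM in those of wild-type 1 to 4. Genotype means differed by less than the wild-type SD for both. The log2 fold changes were −0.01 (−0.40 to 0.37, limma adjusted p = 0.974) for Col4a1 and −0.06 (−0.37 to 0.26, adjusted p = 0.857) for Col4a2, and 0.16 and 0.11 after rescaling. These genes share a start region, and the 22 exonic bases they have in common are 0.295% of the exonic bases of Col4a1 and 0.332% of those of Col4a2.

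Col15a1 (ENSMUSG00000028339, chromosome 4, 47208161 to 47313167, plus strand) encodes type XV collagen, which anchors basement membranes of muscle fibres and capillaries to the fibrils around them. It stood at 3.70, 4.92, 4.28 and 4.70 FPKM in the libraries of K320E-skm 1 to 4, against 11.3, 5.15, 4.66 and 9.46 FPKM in those of wild-type 1 to 4. Wild-type 1 and 4 stood well above every K320E-skm library, while wild-type 3 lay below K320E-skm 2 and 4. The means were 4.40 ± 0.537 and 7.63 ± 3.24 FPKM in K320E-skm and wild-type muscle (SD, n = 4 each), and its log2 fold change was −0.60 (SE 0.25, unadjusted p = 0.0379 and adjusted p = 0.363 by limma). It was −0.45 after rescaling (adjusted p = 0.544). Col18a1, the related type XVIII collagen whose end fragment is endostatin, averaged 1.73 ± 0.383 FPKM in K320E-skm muscle, against 2.04 ± 0.717 FPKM in wild-type muscle (SD, n = 4 each), with a value of −0.14 (limma adjusted p = 0.736).

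Type VI collagen forms the beaded filaments between basement membrane and fibrils, and its loss causes inherited myopathies in people. Col6a1 stood at 10.2, 8.90, 8.46 and 10.4 FPKM in the libraries of K320E-skm 1 to 4, against 18.8, 12.7, 6.45 and 10.8 FPKM in those of wild-type 1 to 4. Col6a2 stood at 8.99, 7.83, 8.13 and 9.61 FPKM in the libraries of K320E-skm 1 to 4, against 17.5, 11.9, 6.36 and 9.81 FPKM in those of wild-type 1 to 4. Both genes lie on chromosome 10 (76708792 to 76726168 and 76595762 to 76623630, minus strand) and went through the libraries in the same order of height for wild-type 1, 2, 4 and 3. Col6a3 (chromosome 1, 90765923 to 90843971, minus strand) stood at 7.34, 8.50, 6.37 and 7.99 FPKM in the libraries of K320E-skm 1 to 4, against 13.8, 8.06, 6.04 and 9.71 FPKM in those of wild-type 1 to 4. The 3 chains join in equal numbers, and the FPKM ratio of Col6a1 to Col6a2 stayed between 1.04 and 1.14 in K320E-skm and between 1.01 and 1.10 in wild-type libraries. Col6a1 over Col6a3 varied more, from 1.05 to 1.39 in K320E-skm and from 1.07 to 1.58 in wild-type libraries. Log2 fold changes were −0.25, −0.29 and −0.24 for Col6a1, Col6a2 and Col6a3 (limma adjusted p = 0.665, 0.601 and 0.624).

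Collagens of types XII and XIV coat fibrils rather than forming them, and are typical of tendon, fascia and the junction of muscle with tendon. Col12a1 stood at 1.41, 1.92, 0.889 and 2.32 FPKM in the libraries of K320E-skm 1 to 4, against 5.81, 4.41, 0.340 and 2.36 FPKM in those of wild-type 1 to 4, a range of 2.61-fold within K320E-skm and 17.1-fold within wild-type. Col14a1 ranged 1.75-fold within K320E-skm and 5.23-fold within wild-type. Col22a1, which is found at the muscle and tendon junction, ranged 2.39-fold within K320E-skm and 6.57-fold within wild-type. Log2 fold changes were −0.48, −0.09 and −0.11 for Col12a1, Col14a1 and Col22a1 (limma adjusted p = 0.634, 0.904 and 0.876). The values of Col12a1 in each library are given because of their spread and were picked after they were seen.

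Col7a1, the anchoring fibril collagen known from skin, had the smallest p of the 19 tested members. It stood at 1.74, 0.790, 0.966 and 1.31 FPKM in the libraries of K320E-skm 1 to 4, against 2.24, 1.12, 2.08 and 1.43 FPKM in those of wild-type 1 to 4. The genotypes overlapped, since K320E-skm 1 and 4 exceeded wild-type 2. The log2 fold change was −0.30 (SE 0.12, unadjusted p = 0.0272 and adjusted p = 0.346 by limma). Without the sex term its unadjusted p from limma was 0.118. Its highest values, 1.74, 2.24 and 2.08 FPKM, were in K320E-skm 1, wild-type 1 and wild-type 3, where Ddx3y stood at 14.3, 21.6 and 16.1 FPKM. The sex term counts K320E-skm 4 as male, although its Ddx3y was 0.0117 FPKM, so the smaller p rests on that label. The part of sex in this difference was not tested.

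**Figure D2:**
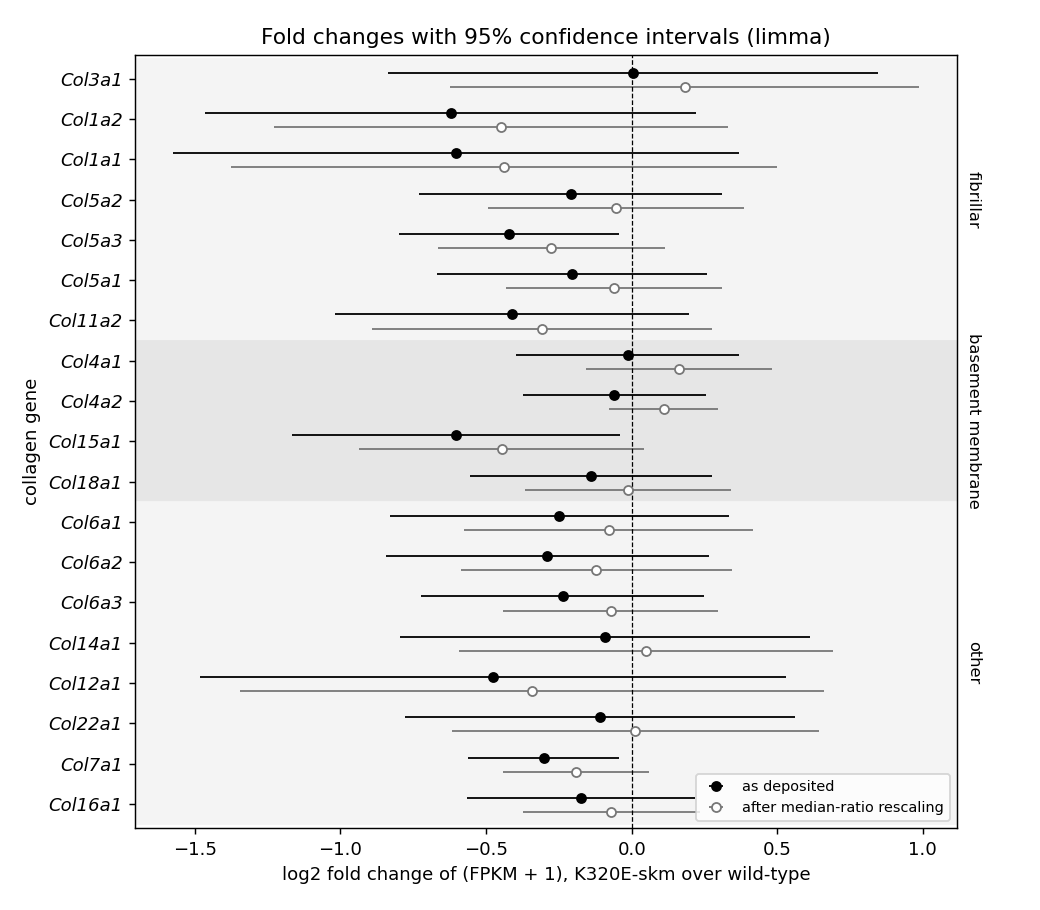
Log2 fold change of FPKM + 1, K320E-skm over wild-type, for the 19 tested collagen genes, with 95% confidence intervals from limma as deposited (filled) and after median-ratio rescaling (open). As deposited only Col5a3, Col15a1 and Col7a1 have intervals below 0, before adjustment, and after rescaling all 19 intervals include 0.

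Most tested collagens varied more among wild-type than among K320E-skm libraries. Wild-type 1 was the highest of the 8 libraries for 18 of 19 members and for 58.2% of all tested genes, and wild-type 3 the lowest for 13 of 19 and for 13.3% of all tested genes. After rescaling wild-type 1 was highest for 13 of 19, against 12.8% of all tested genes, and wild-type 3 lowest for 13 of 19, against 12.8%. The ratio of the highest to the lowest library was larger in wild-type than in K320E-skm for 17 of 19 members as deposited (68.7% of all tested genes) and for 15 after rescaling (58.5%). These counts describe the libraries, and no test was made of them.

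The fold changes depended on these libraries. Wild-type 1 and 3 were picked for this comparison after they were seen to be highest and lowest for most collagens. Counts without them follow in part from that choice and are no support for a difference. The same holds for the counts without them in the gene lists below. Without wild-type 3, limma gave an unadjusted p under 0.05 for 12 of 19 collagens, all lower in K320E-skm, against 17.1% of all genes lower, and the median log2 fold change was −0.45. The 12 were the fibrillar Col1a1, Col1a2, Col5a1, Col5a2, Col5a3 and Col11a2, the basement membrane Col15a1, and Col6a1, Col6a2, Col6a3, Col7a1 and Col12a1, while Col3a1 and the type IV chains were not among them. All 19 values were then under 0, as were 83.4% of all. The smallest limma adjusted p was 0.187, so none passed the threshold, which 0.0285% of all genes passed. Without wild-type 1, 1 of 19 had such a p, Col7a1, against 7.12% of all genes lower, the median was −0.02 and 10 of 19 values were under 0, against 63.3% of all. Col1a1 moved to −1.09 without wild-type 3 and to −0.12 without wild-type 1, and Col12a1 to −1.02 and −0.08.

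**Figure D3:**
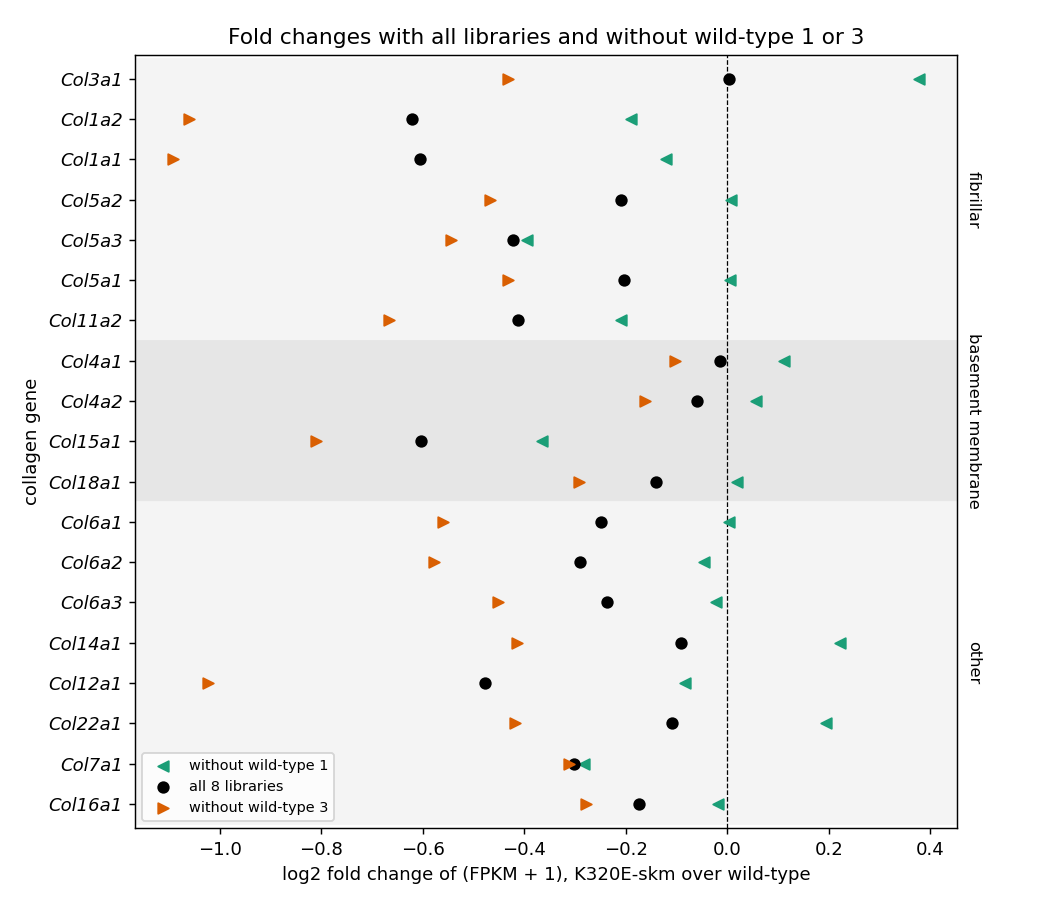
Log2 fold change of FPKM + 1, K320E-skm over wild-type, for the 19 tested collagen genes with all 8 libraries (circles), without wild-type 1 (left-pointing) and without wild-type 3 (right-pointing). The median is −0.24 with all libraries, −0.02 without wild-type 1 and −0.45 without wild-type 3.

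Summed over all 11 fibrillar genes, FPKM were 52.3, 47.0, 60.7 and 69.1 in K320E-skm 1 to 4 and 141, 71.4, 34.3 and 71.2 in wild-type 1 to 4. The 8 basement membrane genes summed to between 38.8 and 44.6 FPKM in K320E-skm muscle, against 36.9 to 60.3 FPKM in wild-type muscle. The 25 other genes summed to between 34.1 and 41.1 FPKM and between 27.7 and 77.5 FPKM in the same order. Ratios of the mean sums, K320E-skm over wild-type, were 0.720, 0.899 and 0.754 for the fibrillar, basement membrane and other genes, and 0.857, 1.03 and 0.881 after rescaling. The fibrillar sum varied 1.47-fold within K320E-skm and 4.12-fold within wild-type. The basement membrane sum varied 1.15-fold within K320E-skm and 1.63-fold within wild-type.

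Most markers of tendon cells and fat cells were also low in wild-type 3. The 9 tenocyte markers summed to 39.7, 72.3, 21.6 and 62.4 FPKM in the libraries of K320E-skm 1 to 4, against 158, 144, 16.4 and 67.7 FPKM in those of wild-type 1 to 4. Fmod, a small proteoglycan of tendon fibrils, ran from 6.31 to 23.4 FPKM in K320E-skm muscle, against 2.20 to 57.2 FPKM in wild-type muscle, and Thbs4, a thrombospondin of tendon matrix, from 8.43 to 30.3 FPKM and from 8.08 to 55.8 FPKM. These 2 genes made up most of the sum. Scx, the transcription factor of the tendon lineage, was picked after its values were seen and went otherwise, at 3.14, 5.52, 2.11 and 2.06 FPKM in the libraries of K320E-skm 1 to 4, against 3.84, 4.00, 4.44 and 4.26 FPKM in those of wild-type 1 to 4. It was nearly level within wild-type and highest there in wild-type 3. Of the 7 tenocyte markers tested none passed the threshold, and all 7 log2 fold changes were under 0, as were 79.5% of all tested genes. Their median was −0.55, and Fmod and Thbs4 had values of −0.55 and −0.73 (limma adjusted p = 0.770 and 0.585). After rescaling the median was −0.37 with all 7 still under 0, against 49.4% of all. Without wild-type 3, limma gave 6 of the 7, all but Scx, an unadjusted p under 0.05, all lower in K320E-skm, against 17.1% of all genes lower, and without wild-type 1 it gave none. Wild-type 1 and 2 were both high in these markers, while Col1a1 stood at 20.4 and 7.89 FPKM in them.

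The 7 adipocyte markers summed to between 116 and 147 FPKM in K320E-skm muscle, against 206, 269, 105 and 141 FPKM in wild-type 1 to 4. In that list Fabp4, a fatty acid carrier also made by capillaries, and Cfd, the secreted adipsin, had log2 fold changes of −0.26 and −0.10 (limma adjusted p = 0.517 and 0.945). Fabp4 made up most of the sum. Plin1, which coats lipid droplets, Adipoq, the hormone adiponectin, and Cidec, a lipid droplet protein, had larger differences of −0.85, −0.81 and −0.55 (limma adjusted p = 0.458, 0.556 and 0.673), and were picked after their values were seen. All 6 tested adipocyte markers were under 0 as deposited, as were 79.5% of all tested genes, with a median of −0.40. After rescaling the median was −0.24 and Cfd was above 0, at 0.08. Without wild-type 3, limma gave 4 of the 6 an unadjusted p under 0.05, all lower in K320E-skm, against 17.1% of all genes lower. The 11 fibroblast and fibro-adipogenic progenitor markers, all tested and none called, summed to 615, 524, 408 and 413 FPKM in the libraries of K320E-skm 1 to 4, against 941, 627, 375 and 400 FPKM in those of wild-type 1 to 4. Dcn, the fibril-binding proteoglycan decorin, and Gsn, the actin regulator gelsolin, had values of −0.27 and −0.19 (limma adjusted p = 0.708 and 0.777) and made up most of the sum. Of the 11 markers, 8 were under 0 and 3 above, with a median of −0.19, and −0.01 after rescaling. With wild-type 3 left out, limma gave 1 of the 11 an unadjusted p under 0.05, lower in K320E-skm, against 17.1% of all genes lower. The 3 above were Ly6a, the progenitor surface antigen Sca-1, at 0.28, the microfibril gene Mfap5 at 0.25 and Pi16 at 0.07 (limma adjusted p = 0.560, 0.712 and 0.931). Ly6a was at 0.45 after rescaling (limma unadjusted p = 0.0288 and adjusted p = 0.453). In bulk tissue, fewer cells of a type and less RNA per cell cannot be told apart, and the part of these cell types in the collagen values was not tested.

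**Figure D4:**
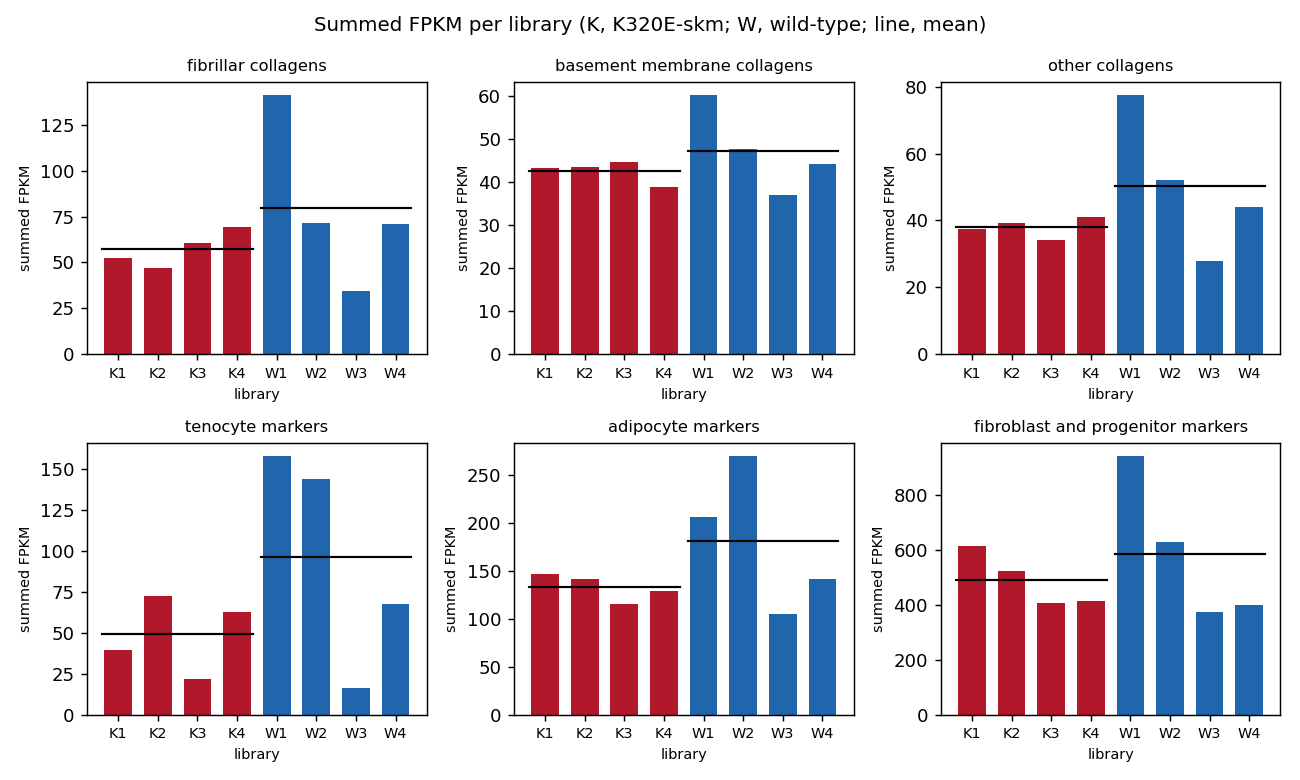
Summed FPKM per library of the 11 fibrillar, 8 basement membrane and 25 other collagen genes and of the tenocyte, adipocyte and fibroblast marker lists, with K320E-skm libraries left of wild-type libraries and a line at each mean. Wild-type 1 has the highest sum of each collagen class and wild-type 3 the lowest, and wild-type 3 also has the lowest sum of each marker list shown.

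The remaining marker lists were summed in the same way. The 9 markers of pericytes and smooth muscle, which make type IV collagen around vessels, summed to between 112 and 143 FPKM in K320E-skm muscle, against 146 to 172 FPKM in wild-type muscle, without overlap. After rescaling these sums overlapped, at 123 to 140 FPKM in K320E-skm muscle, against 135 to 161 FPKM in wild-type muscle. Among the 9 markers 2 had an unadjusted p under 0.05 from limma, both lower in K320E-skm, against 12.0% of all tested genes lower, Pdgfrb at −0.39 (adjusted p = 0.336) and the channel subunit Kcnj8 at −0.49 (adjusted p = 0.357). The 10 endothelial markers summed to between 70.5 and 89.4 FPKM and between 75.4 and 115 FPKM in the same order. Of these markers 9 were under 0 and 1 above, with a median of −0.17, and −0.006 after rescaling. An unadjusted p under 0.05 from limma was found for 1 of the 10, against 12.0% of all tested genes lower. It was the vessel sialomucin Emcn at −0.41 (limma adjusted p = 0.337). Macrophage markers, 9 in number, had sums of 49.9 to 138 FPKM in K320E-skm muscle, against 45.4 to 133 FPKM in wild-type muscle. Log2 fold changes were 0.39 for C1qa and 0.38 for Lyz2 (limma adjusted p = 0.706 and 0.648). All 9 markers were above 0, while 79.5% of all tested genes were under 0, and their median was 0.30, and 0.47 after rescaling. The direction depended on wild-type 3. Without it Csf1r, C1qb, Mrc1 and Cd163 were under 0, at −0.14, −0.0055, −0.16 and −0.086, and the other macrophage markers stayed above 0. As deposited none had an unadjusted p under 0.05 from limma, and after rescaling 1 did. Leaving out wild-type 3, limma gave such a p, lower in K320E-skm, to 2 of the 9 pericyte and smooth muscle markers. It did so for 2 of the 10 endothelial and 0 of the 9 macrophage markers, against 17.1% of all genes lower. The 9 Schwann cell markers summed to 6.49 to 10.2 FPKM in K320E-skm muscle, against 9.50 to 18.0 FPKM in wild-type muscle. The myelin gene Mbp had a value of −0.71 (limma adjusted p = 0.319). The 6 satellite cell markers measured summed to 10.2 to 12.2 FPKM and 8.78 to 14.9 FPKM, with Chodl at −0.44 and Sdc4 at 0.15 (limma adjusted p = 0.389 and 0.658). The 6 chondrocyte markers summed to at most 0.339 FPKM in K320E-skm muscle, against 0.495 FPKM in wild-type libraries, and 1 of them, Matn1, was listed at 0 in all 8.

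The balance between chains was also compared within libraries, where scaling cancels. Col3a1 over Col1a1, a ratio often read as type III to type I collagen, was 6.12, 5.37, 5.21 and 5.17 in K320E-skm 1 to 4 and 2.57, 3.46, 4.08 and 3.72 in wild-type 1 to 4. The genotypes did not overlap, and K320E-skm was higher, with means of 5.47 ± 0.444 and 3.46 ± 0.644 (SD, n = 4 each). This ratio was singled out after the values were seen and has no test. Of the 171 pairs among the 19 members, 2 had ratios that kept the genotypes apart (1.17%), against 5.54% of all pairs of 10430 tested genes. The other was Col4a2 over Col15a1, at 2.39 to 2.93 in K320E-skm and 1.24 to 2.27 in wild-type muscle. Col3a1 over Col1a2 overlapped, at 1.77 to 2.72 and 1.18 to 1.98.

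Type I collagen needs more Col1a1 than Col1a2 chains, yet Col1a2 FPKM were higher than Col1a1 FPKM in every library. The ratio of Col1a2 to Col1a1 ran from 1.90 to 3.47 in K320E-skm and from 1.88 to 3.04 in wild-type libraries. For type IV collagen, whose common form also holds more Col4a1 than Col4a2 chains, Col4a1 over Col4a2 ran from 1.78 to 2.46 in K320E-skm and from 1.76 to 2.40 in wild-type libraries. FPKM depend on the transcript models and on base composition, whose part in these levels was not tested.

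**Figure D5:**
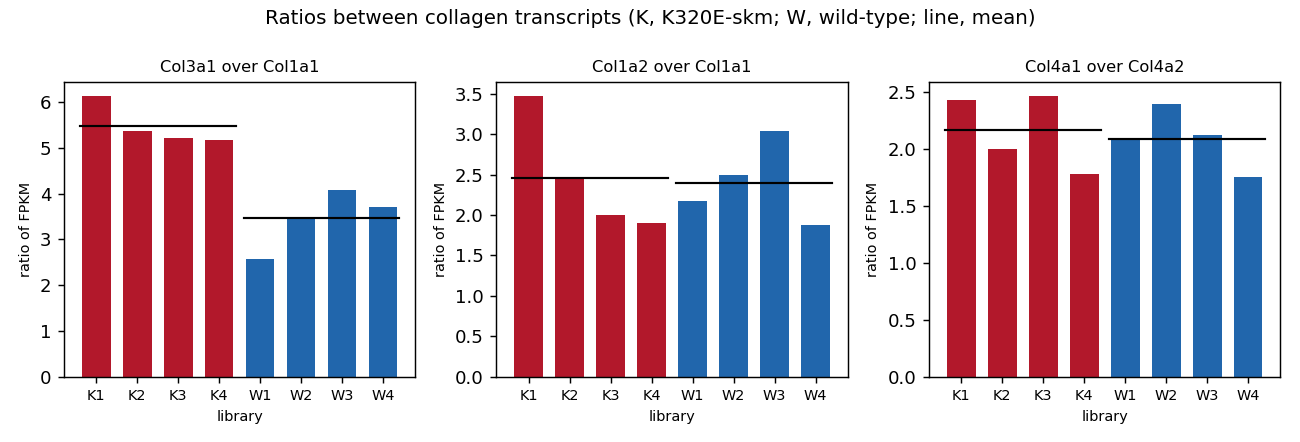
Ratios of FPKM within each library for Col3a1 over Col1a1, Col1a2 over Col1a1 and Col4a1 over Col4a2, with K320E-skm libraries left of wild-type libraries and a line at each mean. Only the first ratio keeps the genotypes apart, at 5.17 or more in K320E-skm and 4.08 or less in wild-type.

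The remaining 25 collagens were below the filter. Just inside it stood Col16a1, at 0.805 to 1.35 FPKM in K320E-skm muscle, against 0.990 to 2.12 FPKM in wild-type muscle, with 5 libraries at 1 FPKM or more. Just outside stood Col6a6, with 3 such libraries, at 0.398 to 1.01 FPKM in K320E-skm muscle, against 0.823 to 1.75 FPKM in wild-type muscle. Col24a1 and Col8a1 reached 1 FPKM in 2 libraries each, and Col8a2 and Col11a1 in wild-type 1 alone. Like Col12a1, Col8a2 was lowest in wild-type 3, at 0.332 to 0.568 FPKM in K320E-skm muscle, against 1.97, 0.992, 0.0334 and 0.620 FPKM in the libraries of wild-type 1 to 4. The other 20 stayed below 1 FPKM in every library, among them the cartilage collagens Col2a1, Col9a1, Col9a2, Col9a3 and Col10a1 and the kidney type IV chains Col4a3 and Col4a4. Col4a5, Col4a6, Col6a5, Col17a1, Col19a1, Col20a1, Col25a1, Col26a1, Col27a1 and Col28a1 were among them as well.

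Of the 25 low members, 3 had non-overlapping genotypes, all lower in K320E-skm, which made 3 of all 44 collagens, against 5.64% of 27723 genes. Col13a1, a membrane collagen of the neuromuscular junction, was at 0.195, 0.228, 0.206 and 0.209 FPKM in the libraries of K320E-skm 1 to 4, against 0.360, 0.318, 0.237 and 0.316 FPKM in those of wild-type 1 to 4. Col23a1, another membrane collagen, was at 0.193 to 0.329 FPKM and 0.353 to 0.522 FPKM in the same order. Col6a4 was listed at 0 in each library of K320E-skm, against 0.00616 to 0.0279 FPKM in wild-type libraries. These 3 are named because their genotypes did not overlap, which is no test, and an exact 0 in Col6a4 can be a failed estimate. Col13a1 is also in the unfiltered fit below, which uses the same values and so adds no support. Tested with no filter on low values, limma gave 5 of 44 collagens an unadjusted p under 0.05, against 8.77% of 27723 genes, and called 0 of the 44, whose smallest adjusted p was 0.499, against 0.00361% of genes called. These 5 were Col5a3, Col7a1, Col6a6, Col13a1 and the cartilage collagen Col9a3. Col9a3 alone of them was higher in K320E-skm, at 0.126 to 0.281 FPKM, against 0 to 0.140 FPKM in wild-type muscle. After rescaling Col13a1 and Col6a4 stayed apart, Col23a1 did not, and Col20a1 lay higher in K320E-skm without overlap. The share of all 27723 genes apart on that scale was not computed, so nothing is read from these low members.

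Genes that build, cut and bind collagen were described from lists. Among 15 tested of 20 genes for folding and modification of the chains, 0 were called, against 0.0190% of all tested genes. An unadjusted p under 0.05 from limma was found for 1 of the 15, against 12.0% of all tested genes lower. It was Sec23a, a coat protein of the vesicles that carry procollagen. Sec23a stood at 15.9, 18.0, 17.9 and 20.2 FPKM in the libraries of K320E-skm 1 to 4, against 23.1, 22.0, 20.4 and 25.3 FPKM in those of wild-type 1 to 4. The genotypes did not overlap, which held for 9.92% of all tested genes. Its log2 fold change was −0.32 (limma adjusted p = 0.354). The list had a median of −0.09, and 0.07 after rescaling, when Plod2, a lysyl hydroxylase gene, had the sole such p of the list at 0.27 (limma adjusted p = 0.402). Of 12 genes that trim and crosslink procollagen, 8 were tested, none had such a p, and the median was −0.18. In this list Pcolce, the enhancer of C-propeptide removal, averaged 10.8 ± 1.52 FPKM in K320E-skm muscle, against 11.6 ± 5.61 FPKM in wild-type muscle, and the lysyl oxidase relative Loxl1 3.26 ± 0.525 and 3.23 ± 1.63 FPKM (SD, n = 4 each).

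Among 12 tested of 16 genes of collagen breakdown and its inhibitors, none had an unadjusted p under 0.05 from limma, and the median was −0.17. The lysosomal protease gene Ctsl was at 58.6, 53.6, 49.7 and 32.1 FPKM in the libraries of K320E-skm 1 to 4, against 36.2, 43.0, 29.0 and 31.5 FPKM in those of wild-type 1 to 4. K320E-skm 1 to 3 lay above all wild-type libraries and K320E-skm 4 did not, and the log2 fold change was 0.44 (unadjusted p = 0.0506 and adjusted p = 0.380 by limma). After rescaling Ctsl was at 0.62 and Timp4, an inhibitor of matrix metalloproteinases, at 0.35, with limma adjusted p of 0.381 and 0.503. Plod2 and Timp4 were picked after their values were seen. Ctsb, another lysosomal protease gene, had a value of −0.05, and 0.13 after rescaling. Of 6 tested collagen receptors, 1 had an unadjusted p under 0.05 from limma, against 12.0% of all tested genes lower. It was Ddr1, a receptor tyrosine kinase that binds collagen. Ddr1 averaged 1.45 ± 0.257 FPKM in K320E-skm muscle, against 2.38 ± 0.684 FPKM in wild-type muscle without overlap (SD, n = 4 each). Its log2 fold change was −0.45 (limma adjusted p = 0.337).

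TGF-beta drives collagen transcription in fibroblasts, and 17 of 18 genes of its signals and targets were tested. None was called, and 3 of 17 had an unadjusted p under 0.05 from limma, all lower in K320E-skm, against 12.0% of all tested genes lower. After rescaling 2 did, Tgfb2 and Ltbp3. The ligand gene Tgfb2 was at 3.80, 2.78, 3.16 and 3.49 FPKM in the libraries of K320E-skm 1 to 4, against 4.60, 5.17, 4.80 and 5.54 FPKM in those of wild-type 1 to 4. The genotypes did not overlap, with wild-type higher, and wild-type 1 and 3, far apart in collagens, differed little here. Its log2 fold change was −0.49 (SE 0.12, unadjusted p = 0.00305 and adjusted p = 0.309 by limma), and −0.34 after rescaling. Ltbp3, which stores latent TGF-beta in the matrix, and the signal transducer Smad4 had values of −0.48 and −0.37 (limma adjusted p = 0.313 and 0.375). The median of the list was −0.19, and −0.03 after rescaling. Of 22 other matrix genes, all tested, 21 had log2 fold changes under 0 as deposited, against 79.5% of all tested genes, with a median of −0.24, and after rescaling the median was −0.08. As deposited 1 had such a p, the laminin chain Lamb1 at −0.37 (limma adjusted p = 0.368), against 12.0% of all tested genes lower. Without wild-type 3, 11 of the 22 had such a p, all lower in K320E-skm, against 17.1% of all genes lower, and without wild-type 1 none had. Among the other lists the counts lower without wild-type 3 were 2 of 15 for folding and modification and 3 of 8 for trimming and crosslinking. They were 5 of 12 for breakdown, 2 of 6 for the receptors and 4 of 17 for the TGF-beta list.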

How the data were processed

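Total RNA of the tibialis anterior from 8 mice was sequenced with a stranded kit, per the labels. FPKM were deposited by the authors as 1 table of 48328 Ensembl genes by 8 libraries. CASAVA, TopHat2 2.0.10, Cufflinks 2.1.1 and mm10 are named in the submitters' processing notes, while annotation and strand setting were not given in the sources used here. An exact 0 can be a failed estimate. The table has no counts, so depth is unknown.

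GENCODE M21 (GRCm38) gave symbols for 47950 IDs and none for 378. All columns matched a sample, and 0 were left out. Groups came from titles. The labels do not say how samples arose beyond naming them separately, and p-values thus measure only spread among these 8 samples. Limma 3.58.1 (R 4.3.3) was fitted to log2(FPKM + 1) (sex and genotype, trend, two-sided, Benjamini-Hochberg threshold 0.05) on 10521 genes with 1 FPKM or more in at least 4 libraries. The pseudocount of 1 shrinks fold changes of low genes. The fit was tested on simulated data. Python 3.11.15, pandas 2.3.3 and matplotlib 3.10.9 were used for tables and figures. Promoter sequences are RefSeq's (GRCm38.p6).

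Members, lists and rules were chosen with earlier results of these data known. Values per library are given for tested members among the 10 highest in mean FPKM or with unadjusted p under 0.05. Of each list, up to 3 genes with unadjusted p under 0.05 or else the 2 highest in FPKM are named, and others named were picked after their values were seen. A gene that this rule would name is not reported here. Ctgf was looked up as Ccn2. Cdh15 and Acta1 of the marker lists were not analysed here. Alternatives were median-ratio and quantile scaling, protein-coding genes alone, filters of 5 FPKM or none, a pseudocount of 0.1, no sex term, a replicate block, robust empirical Bayes, array weights and leaving out each library. For named list genes and the ratio of Col3a1 to Col1a1 they were added after seeing the data.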

Additional observations from a re-analysis of the deposited data

Results flagged for a closer look

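In 2 of the 146 groups of 4 libraries examined, 1 library stood far from the other 3, where chance alone gives about 1 in 20. Wild-type 2 had 7408 FPKM of Ckm, against 6560 to 6680 FPKM in the other wild-type libraries. In wild-type 2 the collagens outside the fibrillar and basement membrane classes took 30.4% of all collagen FPKM, against 27.6 to 28.0% in the other wild-type libraries.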

How the results depend on the processing

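No collagen passed the threshold under any alternative. Depth is unknown, and members below 1 FPKM are the least certain. Members with an unadjusted p under 0.05 from limma numbered 3 as reported, 5 with no filter, 0 with a filter of 5 FPKM, 0 after median-ratio and 0 after quantile scaling, and between 0 and 12 with 1 library left out. Genes called over the whole table numbered 2 as reported, 1 with no filter, 1 with a filter of 5 FPKM, 0 among protein-coding genes alone (limma, with 1301 at an unadjusted p under 0.05) and 5 with array weights. The cause was not tested, beyond fewer or more genes tested under the filters. The labels do not say that replicate numbers pair the samples. Same-numbered deviations correlated at 0.157, 0.0233, 0.0442 and 0.0395. For K320E-skm 1, 2 and 3 these were the highest values with any wild-type library, while K320E-skm 4 correlated better with wild-type 2, at 0.0905. These values do not settle whether the numbers pair the samples. The replicate block gave 3 such members and 2 called genes.

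Of 331 alternative values of the 19 members, 303 kept their direction and 28 changed sign, none of them called. Median-ratio, quantile and array-weight values were 0.16, 0.13 and 0.19 for Col4a1, 0.11, 0.086 and 0.0095 for Col4a2, 0.0496, 0.034 and 0.27 for Col14a1 and 0.013, 0.0046 and 0.0054 for Col22a1, and array weights gave 0.033 for Col18a1. With 1 library left out, values ran from −0.43 to 0.38 for Col3a1, −0.12 to 0.11 for Col4a1, −0.16 to 0.056 for Col4a2, −0.41 to 0.22 for Col14a1, −0.42 to 0.19 for Col22a1, −0.29 to 0.018 for Col18a1, −0.56 to 0.0042 for Col6a1, −0.47 to 0.0075 for Col5a2 and −0.43 to 0.0048 for Col5a1. Among 27 list genes 28 of 476 values changed sign. Median-ratio, quantile and array-weight values were 0.078, 0.029 and 0.33 for Cfd, 0.13, 0.12 and 0.015 for Ctsb and 0.17, 0.14 and 0.22 for Pcolce, which had 0.0039 with a pseudocount of 0.1. Median-ratio and quantile values were 0.0098 and 0.026 for Ckm, and array weights gave 0.099 for Dcn and 0.11 for Gsn. With 1 library left out, values ran from −0.77 to 0.39 for Cfd, −0.11 to 0.036 for Ctsb, −0.54 to 0.015 for Dcn, −1.56 to 0.11 for Fmod, −0.48 to 0.096 for Gsn, −0.17 to 0.36 for Loxl1 and −0.30 to 0.31 for Pcolce. Without wild-type 1 or 3 the ratio of summed fibrillar FPKM was 0.971 or 0.605, and the ratio of Col3a1 to Col1a1, K320E-skm over wild-type, lay between 1.46 and 1.68 with any library left out.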
